A study of Mus musculus with 8 samples.

Results

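The enzymes of glycolysis, glycogen turnover and the pentose phosphate pathway, with the lactate-handling genes next to them, were followed as a list of 39 named genes in whole mouse hearts. All 39 were among the 24411 genes of the deposited count tables, and 37 of them were among the 13506 genes with enough reads to be tested. RNA sequencing of polyadenylated RNA had been done on 4 hearts of mice with a cardiac-specific knockout of Yin-Yang 1 (Yy1, a zinc-finger transcription factor) and on 4 hearts of MerCreMer control mice. Hearts of both groups had been under transverse aortic constriction, a surgical narrowing of the aorta that raises left ventricular load, for 1 week, so no unoperated heart enters any comparison. All mice were of the C57BL/6 strain, and MerCreMer, a Cre recombinase that is switched on by an estrogen receptor ligand such as tamoxifen, is named in the labels of the control mice. The promoter driving Cre, the inducing agent and its dose, the floxed Yy1 allele and the age of the mice are not named there. Nothing in the labels ties a knockout mouse to a control mouse, and p-values weigh the difference between groups against the spread between hearts within a group.

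Glycolysis splits glucose to pyruvate in the cytosol, glycogen stores glucose as a branched polymer, and the pentose phosphate pathway diverts glucose 6-phosphate to ribose and NADPH. Several steps are encoded by more than one gene, with a form that dominates in striated muscle or heart and others that dominate in liver, brain or most tissues. The adult heart draws most of its ATP from fatty acids, and under pressure load it is known to lean more on glucose.

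Levels are given as CPM, read counts scaled to a common library size, for hearts 1 to 4 of a group in that order. Fold changes are log2 of YY1 KO over control ± SE, and p-values come from the quasi-likelihood test of edgeR and were adjusted by Benjamini-Hochberg over the 13506 genes; a gene was called higher or lower where that p was under 0.05. The libraries held 14582605 to 16000455 gene reads. Yy1 transcript was at 18.04, 22.3, 19.9 and 23.8 CPM in YY1 KO hearts, against 33.8, 37.2, 36.3 and 37.1 CPM in control hearts, a log2 difference of −0.78 ± 0.10 (adjusted p = 0.000769), with no overlap. Whole heart was sequenced, so fewer cells of a type and less RNA per cell cannot be told apart.

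The series text describes all mice as male, and 4 of the 8 libraries, 2 in each group, went against it. YY1 KO hearts 1 and 4 and control hearts 1 and 4 carried Xist at 138 to 219 CPM with Y-linked transcripts (Ddx3y, Uty, Kdm5d and Eif2s3y summed) at no more than 0.134 CPM. The other 2 hearts of each group carried Y-linked transcripts at 162 to 196 CPM with Xist at no more than 0.385 CPM. Results on the called members and on the enzyme families are therefore also given within the Xist-positive and within the Y-positive hearts, 2 against 2 in each, for called members as log2 fold changes whose SE lay between 0.13 and 0.70. No member and none of the 13506 genes passed an interaction test between genotype and these 2 kinds of heart (edgeR, lowest member adjusted p = 0.812); 702 genes, 2 of them members, had an unadjusted p under 0.05.

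Of the 37 tested members, 10 were higher and 11 were lower in YY1 KO hearts, and 16 were not called. Without YY1 KO heart 3, 6 were higher and 9 lower, against 16.1% and 12.2% of all genes tested in that fit. In the Xist-positive hearts alone edgeR called 0 members (16 with an unadjusted p under 0.05) and 0 of all genes. In the Y-positive hearts alone it called 12 members, against 12.7% of all genes higher and 11.8% lower. Of these 12, 11 were among the 21 called members and 1 was Pfkfb3. All 21 called members kept their direction in both, in hearts that also entered the calls. Among all tested genes 21.6% were called higher, 17.3% lower and 38.9% either way, against 56.76% of the tested members either way. The 2 groups did not overlap for 21 members, which is also 56.76%, while 38.3% of all tested genes did not overlap. The median log2 fold change of the members was −0.10 and its median size 0.48, against 0.01 and 0.35 over all tested genes. Where the list holds several forms of an enzyme, 7 were taken as the muscle or heart form, and all were called. The list and this choice of forms were made with earlier results of these data known. Pfkm, Pgam2, Eno3, Ldhb, Pfkfb2 and Pygm were lower and Aldoa higher. Of the 9 other tested forms, Pfkl, Pfkp and Pygl were higher, Pygb was lower and 5 were not called. Ldha and Pfkfb1, among those 5, are also forms of skeletal muscle, but the heart forms Ldhb and Pfkfb2 were taken for their families. The list also holds 3 muscle forms whose counterparts lie outside it, and they did not move alike: Phka1 was higher, Phkg1 was lower and Gys1 was not called. Summed over all 39 genes, the transcripts made up 20320 ± 1460 CPM in YY1 KO hearts and 21450 ± 1484 CPM in control hearts (SD, n = 4 each), so the members moved in both directions around a total whose ranges overlapped.

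**Figure D1:**
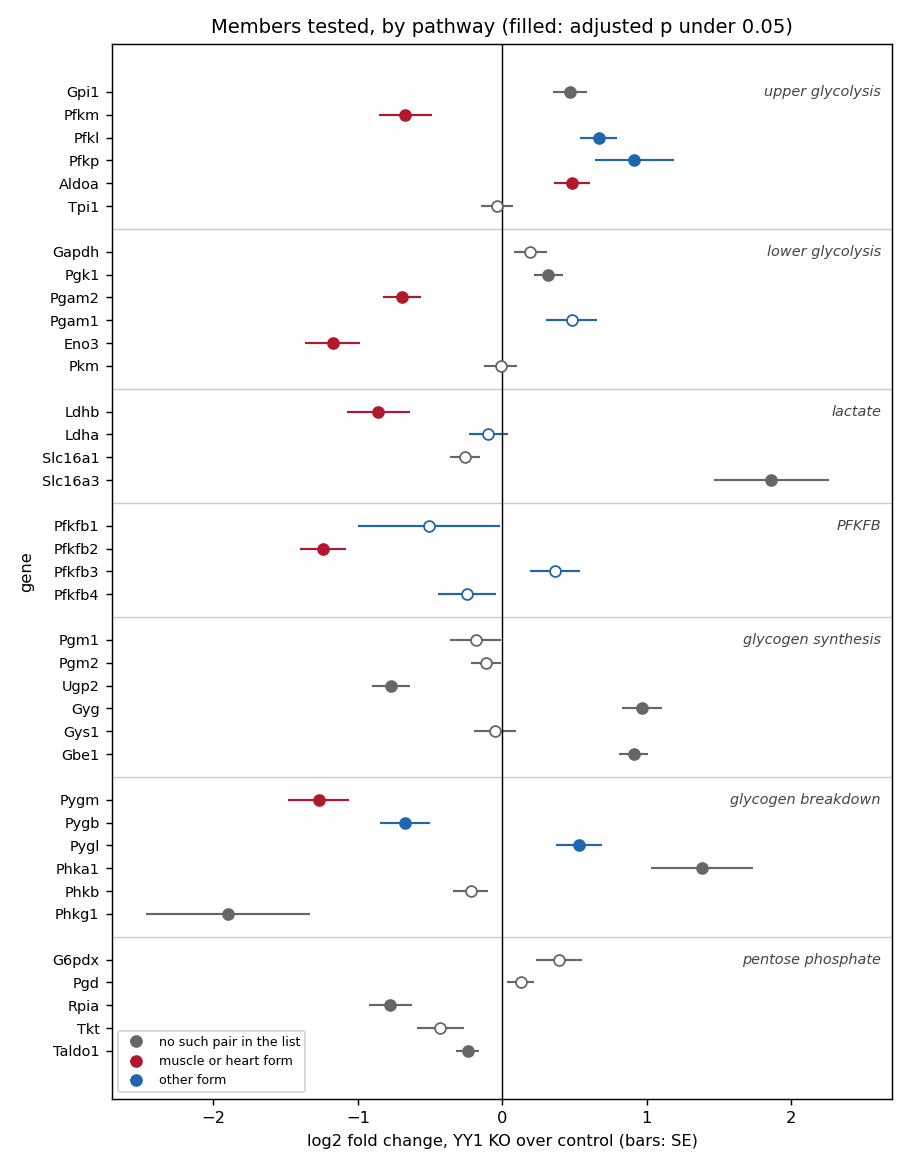
Log2 fold change of each of the 37 tested members, YY1 KO over control, grouped by pathway down the page, with bars for the SE. Filled points passed an adjusted p of 0.05, red points are muscle or heart forms of enzymes with several forms in the list, blue points the other forms and grey points all other members; 6 of the 7 red points lie left of 0, at −0.67 to −1.27, and Aldoa lies at 0.48.

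Promoter windows from RefSeq (GRCm38.p6) are shown for 4 called members, which were chosen because they hold copies of the motifs searched for and because they moved in opposite directions. A window runs from 250 bases before to 50 bases after a transcription start and is written 5′ to 3′ on the gene's strand. The motifs searched, on both strands, were ATGGCNGC and CCATNTT, 2 forms of the sequence that Yy1 is known to bind, the E-box CACGTG and the hypoxia response core ACGTG, which every CACGTG also contains. Capitals mark the matches. The Pfkm window lies at chr15:98108221-98108520 (plus strand), the Pfkfb2 window at chr1:130715772-130716071 (minus strand), the Gyg window at chr3:20155067-20155366 (minus strand) and the Slc16a3 window at chr11:120948817-120949116 (plus strand).
Pfkm, lower in YY1 KO hearts: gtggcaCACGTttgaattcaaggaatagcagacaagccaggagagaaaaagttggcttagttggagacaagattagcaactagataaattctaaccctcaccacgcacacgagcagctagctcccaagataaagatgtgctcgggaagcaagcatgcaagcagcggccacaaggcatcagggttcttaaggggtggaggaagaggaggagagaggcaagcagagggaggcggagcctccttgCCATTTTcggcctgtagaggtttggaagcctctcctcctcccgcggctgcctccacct
Pfkfb2, lower in YY1 KO hearts: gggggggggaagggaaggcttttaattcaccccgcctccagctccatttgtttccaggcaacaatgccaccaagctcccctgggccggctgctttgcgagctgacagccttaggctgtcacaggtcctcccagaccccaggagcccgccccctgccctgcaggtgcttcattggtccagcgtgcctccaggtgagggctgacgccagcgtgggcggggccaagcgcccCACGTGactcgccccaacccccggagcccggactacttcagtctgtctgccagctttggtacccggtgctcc
Gyg, higher in YY1 KO hearts: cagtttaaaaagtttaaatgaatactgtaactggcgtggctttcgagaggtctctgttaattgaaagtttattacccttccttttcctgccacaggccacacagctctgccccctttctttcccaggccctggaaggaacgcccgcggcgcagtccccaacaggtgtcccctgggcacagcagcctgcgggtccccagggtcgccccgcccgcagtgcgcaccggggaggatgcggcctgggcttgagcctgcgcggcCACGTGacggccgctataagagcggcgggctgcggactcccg
Slc16a3, higher in YY1 KO hearts: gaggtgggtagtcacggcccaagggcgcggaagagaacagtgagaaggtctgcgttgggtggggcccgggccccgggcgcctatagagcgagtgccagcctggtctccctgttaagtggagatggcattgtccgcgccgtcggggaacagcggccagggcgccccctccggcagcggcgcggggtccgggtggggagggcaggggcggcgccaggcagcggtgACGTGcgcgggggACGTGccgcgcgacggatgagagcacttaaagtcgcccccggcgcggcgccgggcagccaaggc

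In the Pfkm window the CCATNTT match starts 8 bases before the transcription start, in the Pfkfb2 window the E-box starts 22 bases before it, and in the Gyg window the E-box starts 8 bases after it. All 39 members had a window, 57 in all because some genes have several starts. ATGGCNGC was in 0 of the 57 windows, against 6.52% of all 32851 windows in the table and 9.25% of the windows of tested genes. CCATNTT was in 5 of 57 (8.77%, against 16.1% of all windows and 14.5% of those of tested genes), in the promoters of Gapdh, Ldhb, Pfkfb2 and Pfkm. Of those 4 genes 3 were lower and Gapdh was not called, while 29.73% of tested members and 17.3% of all tested genes were lower. A link between motif and direction was not tested. The Pfkfb2 match lies in another of its windows, at chr1:130714527-130714826, not in the one shown. CACGTG was in 6 of 57 (10.5%, against 7.15% of all windows and 9.68% of those of tested genes), in Gyg, Ldha, Pfkfb2, Pfkfb3, Pfkm and Slc16a1. The Pfkm E-box lies in another of its windows, at chr15:98092339-98092638, not in the one shown. ACGTG was in 24 of 57 (42.1%, against 19.6% of all windows and 24.9% of the windows of tested genes). It was in windows of 5 of the 10 members called higher and of 5 of the 11 called lower. These matches are letters in a window, and no binding was measured.

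Upper glycolysis, down to the triose phosphates, was the class with the largest share of members called higher: Gpi1, Pfkl, Pfkp and Aldoa were higher, Pfkm was lower and Tpi1 was not called. Gpi1, which interconverts glucose 6-phosphate and fructose 6-phosphate, was at 973.9, 1269, 1175 and 1005 CPM in YY1 KO hearts, against 805.8, 778.4, 805.3 and 809.8 CPM in control hearts. The groups did not overlap (log2 0.47 ± 0.12, adjusted p = 0.0123; 0.29 in the Xist-positive and 0.61 in the Y-positive hearts). Aldoa, the aldolase of muscle, which splits fructose 1,6-bisphosphate, was at 4395, 5399, 5227 and 4451 CPM in YY1 KO hearts, against 3641, 3575, 3327 and 3404 CPM in control hearts. It did not overlap either (log2 0.48 ± 0.13, adjusted p = 0.0155; 0.33 in the Xist-positive and 0.60 in the Y-positive hearts). Its adjusted p was 0.0523 without YY1 KO heart 3 and 0.0511 without control heart 4. Tpi1, triosephosphate isomerase, averaged 866.9 ± 92.8 CPM in YY1 KO hearts and 889.4 ± 57.5 CPM in control hearts (SD, n = 4 each). Aldoc, the brain aldolase, had at most 0.475 CPM in any heart and was not tested.

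At phosphofructokinase, the step that commits sugar to glycolysis, the forms moved apart. Pfkm, its muscle form, was at 636.5, 884.2, 833.4 and 914.9 CPM in YY1 KO hearts, against 1631, 1439, 1023 and 1111 CPM in control hearts. Every YY1 KO heart lay below every control heart (log2 −0.67 ± 0.18, adjusted p = 0.0182; −0.82 in the Xist-positive and −0.54 in the Y-positive hearts). Pfkl, the liver form, was at 327.6, 284.1, 413.5 and 300.4 CPM in YY1 KO hearts, against 225.9, 191.4, 211.1 and 206.0 CPM in control hearts. All 4 YY1 KO hearts were above all 4 control hearts (log2 0.67 ± 0.13, adjusted p = 0.00393; 0.54 in the Xist-positive and 0.78 in the Y-positive hearts). Pfkp, the platelet form, was at 193.8, 126.9, 172.9 and 178.0 CPM in YY1 KO hearts, against 58.1, 59.2, 131.8 and 107.0 CPM in control hearts. Its groups overlapped, because control heart 3 lay above YY1 KO heart 2, and the call (log2 0.91 ± 0.27, adjusted p = 0.0264; 1.17 in the Xist-positive and 0.63 in the Y-positive hearts) missed the threshold when any of 4 hearts was left out. The adjusted p was then 0.0632, 0.0641 and 0.0547 without YY1 KO hearts 1, 3 and 4, and 0.0679 without control heart 2. Of the 100-base stretches of the Pfkp transcript, 16.04% also occur in transcripts of Pitrm1, which overlaps it on the opposite strand.

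In lower glycolysis Pgam2 and Eno3, both muscle forms, were lower, Pgk1 was slightly higher, and Gapdh, Pgam1 and Pkm were not called. Pgam2, the muscle phosphoglycerate mutase, was at 335.5, 310.2, 372.9 and 438.3 CPM in YY1 KO hearts, against 519.8, 637.8, 598.4 and 600.5 CPM in control hearts. The groups were apart (log2 −0.69 ± 0.13, adjusted p = 0.0034; −0.54 in the Xist-positive and −0.87 in the Y-positive hearts). Eno3, the muscle enolase that makes phosphoenolpyruvate, was at 454.0, 800.9, 689.9 and 528.6 CPM in YY1 KO hearts, against 1581, 1531, 1241 and 1230 CPM in control hearts. Its mean in YY1 KO hearts was 44.3% of that in control hearts, with wide separation (log2 −1.17 ± 0.19, adjusted p = 0.00191; −1.52 in the Xist-positive and −0.91 in the Y-positive hearts). Pgk1, the X-linked phosphoglycerate kinase that yields the first ATP of the pathway, was at 423.4, 352.4, 440.6 and 390.4 CPM in YY1 KO hearts, against 307.0, 301.9, 346.0 and 332.9 CPM in control hearts.

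The Pgk1 groups did not overlap (log2 0.32 ± 0.10, adjusted p = 0.035; 0.35 in the Xist-positive and 0.27 in the Y-positive hearts), but the call was lost when any of 5 hearts was left out. Without YY1 KO heart 1 or 3 the adjusted p was 0.0800 or 0.103, and without control heart 1, 2 or 4 it was 0.0776, 0.111 or 0.0703, and with no filter 0.054. Pgam1, the phosphoglycerate mutase of most tissues, was at 49.2, 31.8, 48.1 and 39.3 CPM in YY1 KO hearts, against 26.2, 24.4, 33.6 and 36.6 CPM in control hearts. These overlapped and missed the threshold (log2 0.48 ± 0.18, adjusted p = 0.0568), which was passed without YY1 KO heart 2 (adjusted p = 0.0241), without control heart 4 (0.0438) and in DESeq2 (0.0443). Gapdh, glyceraldehyde 3-phosphate dehydrogenase, averaged 3931 ± 212 CPM in YY1 KO hearts and 3438 ± 178 CPM in control hearts (SD, n = 4 each; log2 0.19 ± 0.11, adjusted p = 0.207). Pkm, the pyruvate kinase of muscle and most other tissues, averaged 1751 ± 117 CPM in YY1 KO hearts and 1766 ± 143 CPM in control hearts (SD, n = 4 each; log2 −0.01 ± 0.11, adjusted p = 0.942).

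Reads that map to several places were not counted, and this touched some of these genes. Of the 100-base stretches of their transcripts, 78.05% for Gapdh, 67.03% for Pgk1 and 39.74% for Pgam1 also occur in transcripts of other genes, mostly processed copies, so their levels are lower bounds. Eno1, the enolase of most tissues, was listed with 2 reads in YY1 KO heart 1 and 0 reads in the other 7 libraries, with 59.02% of its stretches shared with copies elsewhere. Gapdh, with a larger share of its stretches shared, averaged 3438 CPM in control hearts. Eno1b, where 58.6% of the Eno1 stretches also occur, had 1 to 5 reads in each library. The cause of the Eno1 listing was not tested. The listing does not show whether the transcript was absent, and no difference between groups was tested for Eno1.

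**Figure D2:**
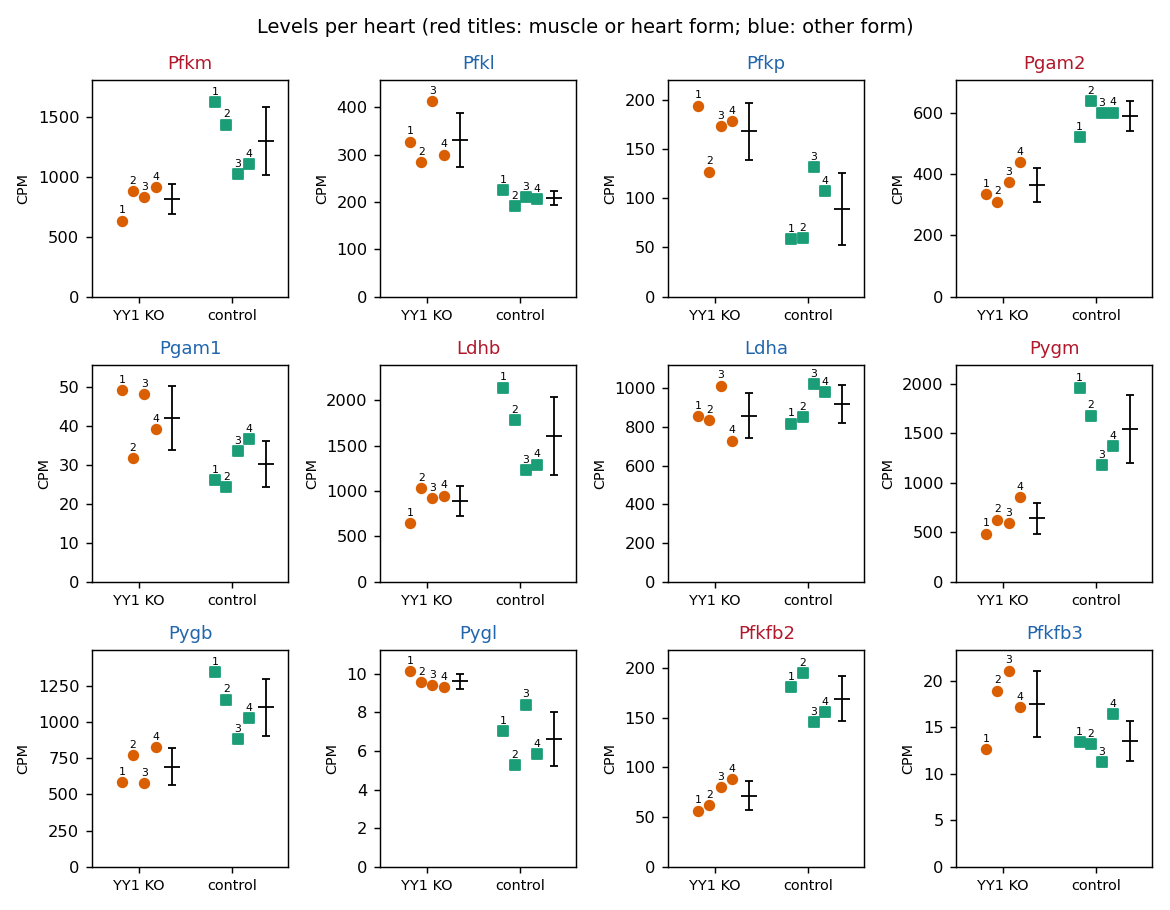
Level per heart in CPM (y axes start at 0) for the forms of phosphofructokinase, phosphoglycerate mutase, lactate dehydrogenase and glycogen phosphorylase and for Pfkfb2 and Pfkfb3, with YY1 KO hearts as circles, control hearts as squares, heart numbers beside the points, and mean ± SD (n = 4) to the right of each group. The muscle or heart forms, with red titles, all sit lower in YY1 KO hearts, with Pfkm at most 914.9 CPM there and at least 1023 CPM in control hearts.

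Among the lactate genes Ldhb was lower and Slc16a3 higher. Ldhb, the heart-type lactate dehydrogenase subunit, was at 644.9, 1035, 924.3 and 948.7 CPM in YY1 KO hearts, against 2137, 1782, 1227 and 1290 CPM in control hearts. No YY1 KO heart reached the lowest control heart (log2 −0.86 ± 0.22, adjusted p = 0.0134; −1.11 in the Xist-positive and −0.64 in the Y-positive hearts). Ldha, the muscle-type subunit of skeletal muscle and most tissues, was at 857.0, 835.5, 1014 and 729.8 CPM in YY1 KO hearts, against 818.3, 851.0, 1024 and 982.0 CPM in control hearts. The ranges overlapped over most of their length (log2 −0.10 ± 0.13, adjusted p = 0.59). Slc16a3, which encodes the lactate exporter MCT4, was at 22.3, 11.6, 19.3 and 9.10 CPM in YY1 KO hearts, against 1.69, 4.06, 5.88 and 5.44 CPM in control hearts. It showed the largest increase of any member, with no overlap (log2 1.86 ± 0.40, adjusted p = 0.00625; 2.13 in the Xist-positive and 1.61 in the Y-positive hearts). Of its stranded reads, 12.1% in YY1 KO hearts and 17.1% in control hearts lay on the opposite strand, and it was still called on sense-strand counts. Slc16a1, the lactate carrier MCT1, was at 260.8, 337.7, 291.0 and 315.4 CPM in YY1 KO hearts, against 386.2, 367.3, 340.3 and 348.6 CPM in control hearts. These did not overlap, yet the test missed its threshold (log2 −0.26 ± 0.10, adjusted p = 0.0764), passing it without YY1 KO heart 2 (adjusted p = 0.046) and in DESeq2 (0.025).

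The 4 PFKFB genes encode bifunctional enzymes that make and remove fructose 2,6-bisphosphate, the strongest activator of phosphofructokinase. Pfkfb2, the heart form, was at 56.5, 61.9, 79.8 and 88.2 CPM in YY1 KO hearts, against 181.0, 194.9, 145.3 and 155.5 CPM in control hearts. This was a fall to 42.3% of the control mean without overlap (log2 −1.24 ± 0.16, adjusted p = 0.000757; −1.22 in the Xist-positive and −1.28 in the Y-positive hearts). Pfkfb3, an inducible form with high kinase activity, was at 12.7, 19.0, 21.1 and 17.2 CPM in YY1 KO hearts, against 13.4, 13.2, 11.2 and 16.4 CPM in control hearts. It was not called (log2 0.37 ± 0.17, adjusted p = 0.124), but passed the threshold without YY1 KO heart 1 (adjusted p = 0.0347) and in the Y-positive hearts alone. Its log2 fold change was 0.00 in the Xist-positive and 0.70 in the Y-positive hearts (adjusted p = 0.0333 for the Y-positive), with an interaction p in edgeR of 0.0404 before adjustment and 0.812 after it. Pfkfb1, the form of liver and skeletal muscle, averaged 5.34 ± 2.06 CPM in YY1 KO hearts and 7.61 ± 5.01 CPM in control hearts, and Pfkfb4, first described in testis, averaged 5.00 ± 1.11 CPM in YY1 KO hearts and 5.94 ± 0.91 CPM in control hearts (SD, n = 4 each). Neither was called. Of the 100-base stretches of Pfkfb2, 23.88% also occur in the transcript Gm29427.

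For 5 enzyme families with more than one measured form, the log2 ratio of the muscle or heart form to the summed other forms was taken in each heart, with levels divided by exon length (CPM per kb). The share of the other forms was larger in YY1 KO hearts in 4 of the 5. For phosphofructokinase, Pfkl and Pfkp made up 38.5, 26.4, 35.2 and 28.6% of the family in YY1 KO hearts, against 11.99, 11.95, 20.4 and 17.8% in control hearts. Every YY1 KO heart lay above every control heart, and the log2 ratio was 1.39 lower (−1.39; two-sided exact permutation test over 70 assignments, p = 0.0286, the smallest it can give, adjusted over the 5 families 0.0357). The log2 ratio differed by −1.18 for phosphoglycerate mutase, by −0.61 for glycogen phosphorylase and by −1.16 for the PFKFB genes, each without overlap and each with the same exact p of 0.0286 and adjusted p of 0.0357. These ratios, and the family sums given below, reuse the hearts and genes of the single-gene calls. Their tests are thus no separate support for those calls. The other forms made up 5.24 ± 1.09% of phosphoglycerate mutase in YY1 KO hearts and 2.38 ± 0.44% in control hearts, 44.9 ± 3.28% of glycogen phosphorylase in YY1 KO hearts and 34.7 ± 1.16% in control hearts, and 34.0 ± 4.93% of PFKFB in YY1 KO hearts and 18.8 ± 3.18% in control hearts (SD, n = 4 each). The phosphoglycerate mutase shares are lower bounds, since 39.74% of the Pgam1 stretches but 0.0% of those of Pgam2 occur in other genes. For lactate dehydrogenase Ldha made up 47.8, 35.7, 43.0 and 34.6% in YY1 KO hearts, against 20.9, 24.7, 36.5 and 34.4% in control hearts. These overlapped and the difference of −0.74 did not pass (exact permutation p = 0.114, adjusted 0.114). Within the Xist-positive and within the Y-positive hearts all 5 ratios were also lower in YY1 KO hearts, with no test at 2 against 2: the differences were −1.54 and −1.24 for phosphofructokinase, −1.05 and −1.31 for phosphoglycerate mutase, −0.90 and −0.58 for lactate dehydrogenase, −0.61 and −0.62 for glycogen phosphorylase, and −0.78 and −1.53 for PFKFB.

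The summed transcript of a family was lower in YY1 KO hearts for 4 of the 5. On the log2 scale of summed CPM per kb the difference was −1.03 for glycogen phosphorylase, −0.95 for PFKFB, −0.66 for phosphoglycerate mutase and −0.59 for lactate dehydrogenase, each without overlap (exact permutation p = 0.0286, adjusted 0.0357). For phosphofructokinase the sum was 345.2, 400.5, 429.0 and 427.0 CPM per kb in YY1 KO hearts, against 618.1, 544.9, 428.3 and 450.6 CPM per kb in control hearts. There the groups overlapped at control heart 3 and the difference of −0.34 did not pass (exact permutation p = 0.0571, adjusted 0.0571). All 5 sums were also lower within each kind of heart, with differences of −0.46 to −1.10 in the Xist-positive and −0.22 to −0.95 in the Y-positive hearts.

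**Figure D3:**
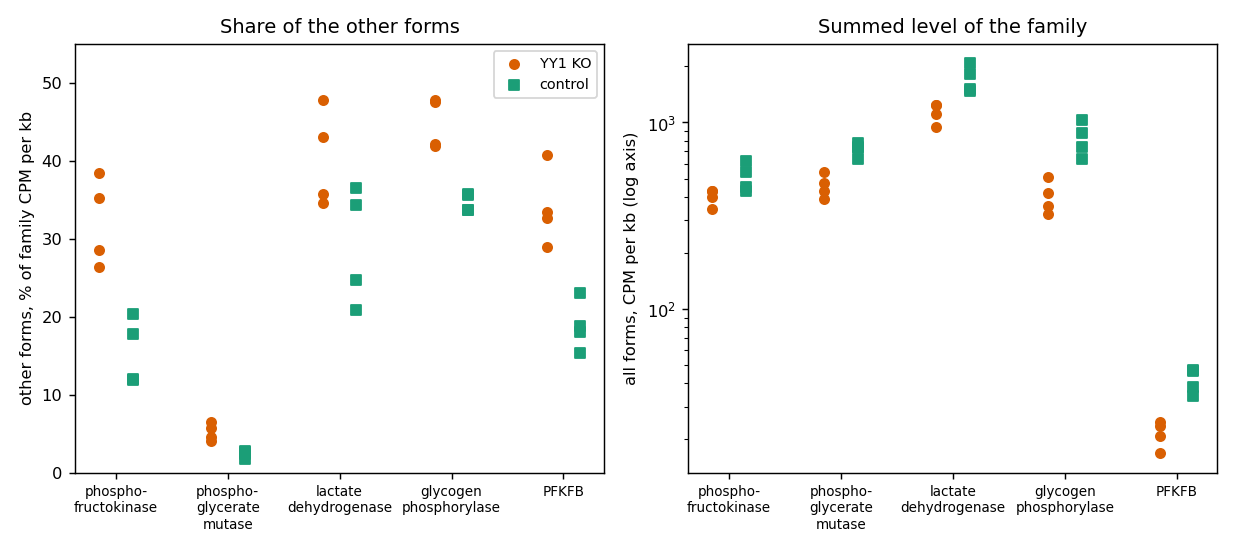
Left, the share of the forms other than the muscle or heart form in the family's length-corrected transcript, in percent; right, the summed level of all forms in CPM per kb on a log axis. Each point is a heart, with YY1 KO hearts as circles to the left of control hearts as squares: on the left the groups overlap only for lactate dehydrogenase, and on the right only for phosphofructokinase.

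In glycogen synthesis Gyg and Gbe1 were higher, Ugp2 was lower and 3 members were not called. Gyg, glycogenin, the protein primer on which a glycogen particle starts, was at 489.7, 300.4, 390.3 and 370.6 CPM in YY1 KO hearts, against 189.6, 202.7, 203.7 and 197.2 CPM in control hearts. The control hearts spanned only 189.6 to 203.7 CPM, well below the lowest YY1 KO heart (log2 0.97 ± 0.14, adjusted p = 0.00118; 1.15 in the Xist-positive and 0.75 in the Y-positive hearts). Gbe1, the branching enzyme, was at 114.4, 132.4, 131.6 and 107.0 CPM in YY1 KO hearts, against 68.8, 61.8, 69.4 and 58.6 CPM in control hearts. It had the smallest adjusted p of the list and no overlap (log2 0.91 ± 0.10, adjusted p = 0.000419; 0.80 in the Xist-positive and 0.99 in the Y-positive hearts). Ugp2, which makes UDP-glucose, the substrate of glycogen synthase, was at 171.1, 202.0, 191.5 and 228.6 CPM in YY1 KO hearts, against 274.8, 345.7, 392.5 and 340.7 CPM in control hearts. It was lower without overlap (log2 −0.77 ± 0.13, adjusted p = 0.00233; −0.62 in the Xist-positive and −0.93 in the Y-positive hearts). Gys1, the glycogen synthase of muscle and heart, averaged 157.6 ± 29.3 CPM in YY1 KO hearts and 163.2 ± 23.0 CPM in control hearts (SD, n = 4 each; log2 −0.05 ± 0.15, adjusted p = 0.808). The phosphoglucomutase symbols Pgm1 and Pgm2 have each been used for the other gene in mouse, so which locus a symbol means in these tables is uncertain. The gene listed as Pgm2 averaged 246.8 ± 16.9 CPM in YY1 KO hearts and 266.8 ± 31.3 CPM in control hearts, and that listed as Pgm1 8.60 ± 1.00 CPM in YY1 KO hearts and 9.77 ± 2.08 CPM in control hearts (SD, n = 4 each). Neither was called.

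In glycogen breakdown Pygm, Pygb and Phkg1 were lower, Pygl and Phka1 were higher and Phkb was not called. The 6 transcripts summed to 1593 ± 287 CPM in YY1 KO hearts and 2811 ± 566 CPM in control hearts (SD, n = 4 each), without overlap and with no test. Pygm, the muscle glycogen phosphorylase, was at 486.1, 627.4, 594.6 and 852.5 CPM in YY1 KO hearts, against 1957, 1680, 1176 and 1370 CPM in control hearts. The highest YY1 KO heart stayed below the lowest control heart (log2 −1.27 ± 0.21, adjusted p = 0.00207; −1.31 in the Xist-positive and −1.24 in the Y-positive hearts). Pygb, the brain form, which the heart also carries, was at 586.4, 772.0, 578.2 and 824.3 CPM in YY1 KO hearts, against 1345, 1153, 880.0 and 1025 CPM in control hearts. It too was lower with no overlap (log2 −0.67 ± 0.17, adjusted p = 0.0147; −0.75 in the Xist-positive and −0.61 in the Y-positive hearts). Pygl, the liver form, was at 10.2, 9.58, 9.42 and 9.29 CPM in YY1 KO hearts, against 7.04, 5.27, 8.40 and 5.82 CPM in control hearts. The groups were apart (log2 0.53 ± 0.16, adjusted p = 0.0268; 0.60 in the Xist-positive and 0.45 in the Y-positive hearts), but the call was lost without any of 5 hearts. The adjusted p was 0.0648, 0.0512 and 0.0596 without YY1 KO hearts 1, 2 and 3, and 0.0763 and 0.0750 without control hearts 2 and 4.

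Phosphorylase kinase switches glycogen phosphorylase on, and 3 of its subunit genes were in the list. Phka1, the X-linked muscle alpha subunit, which is regulatory, was at 124.5, 347.5, 200.5 and 93.8 CPM in YY1 KO hearts, against 79.2, 71.0, 67.8 and 75.8 CPM in control hearts. All YY1 KO hearts exceeded all control hearts (log2 1.38 ± 0.35, adjusted p = 0.0141), but by unequal amounts: the log2 fold change was 0.49 ± 0.18 in the Xist-positive hearts and 1.96 ± 0.27 in the Y-positive hearts. The difference between the 2 was 1.49 ± 0.37, with an interaction p in edgeR of 0.00496 before adjustment and 0.812 after it. Phkg1, the muscle catalytic subunit, was at 2.67, 8.49, 5.00 and 3.68 CPM in YY1 KO hearts, against 35.7, 22.6, 6.06 and 9.49 CPM in control hearts. It had the largest fall by size, with overlap between YY1 KO heart 2 and control heart 3 (log2 −1.90 ± 0.57, adjusted p = 0.0264; −2.83 in the Xist-positive and −1.11 in the Y-positive hearts). This call was lost without YY1 KO heart 1, 3 or 4 (adjusted p = 0.0671, 0.0693 or 0.0656), without control heart 1 or 2 (0.0576 or 0.0619) and in limma-voom (0.0740). Of the 100-base stretches of Phkg1, 23.34% also occur in Sumf2, which overlaps it on the opposite strand. Phkb, the beta subunit, averaged 56.5 ± 2.73 CPM in YY1 KO hearts and 65.8 ± 11.2 CPM in control hearts and was not called (SD, n = 4 each; log2 −0.22 ± 0.12, adjusted p = 0.175).

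In the pentose phosphate pathway Rpia and Taldo1, both of the non-oxidative branch, were lower, and no member was called higher. Rpia, ribose 5-phosphate isomerase, was at 11.3, 8.63, 11.4 and 14.3 CPM in YY1 KO hearts, against 20.6, 20.9, 17.6 and 19.4 CPM in control hearts. It was lower without overlap (log2 −0.78 ± 0.15, adjusted p = 0.00395; −0.64 in the Xist-positive and −0.96 in the Y-positive hearts). Taldo1, transaldolase, was at 66.8, 66.8, 68.9 and 69.5 CPM in YY1 KO hearts, against 88.7, 83.8, 72.7 and 76.2 CPM in control hearts. This was the smallest change called (log2 −0.24 ± 0.08, adjusted p = 0.0425; −0.28 in the Xist-positive and −0.22 in the Y-positive hearts). It was lost when any heart other than control heart 3 was left out, with adjusted p of 0.0938, 0.0806, 0.0899 and 0.0613 without YY1 KO hearts 1 to 4 and of 0.0798, 0.0976 and 0.0513 without control hearts 1, 2 and 4. It was also lost with a term for the 2 kinds of heart (adjusted p = 0.0559), with library size alone (0.099) and with no filter (0.0603). Tkt, transketolase, was at 32.1, 23.5, 25.1 and 27.1 CPM in YY1 KO hearts, against 32.0, 28.2, 45.8 and 38.95 CPM in control hearts. It was not called (log2 −0.43 ± 0.16, adjusted p = 0.0626), but passed the threshold without YY1 KO heart 1 (adjusted p = 0.0455), without control heart 2 (0.0325), with RLE scaling (0.0452) and in DESeq2 (0.0286). Of the oxidative branch, G6pdx, the X-linked glucose 6-phosphate dehydrogenase that makes NADPH, averaged 14.4 ± 1.58 CPM in YY1 KO hearts and 10.9 ± 2.22 CPM in control hearts, without overlap but not called (SD, n = 4 each; log2 0.39 ± 0.16, adjusted p = 0.0796). Pgd, 6-phosphogluconate dehydrogenase, averaged 51.8 ± 1.98 CPM in YY1 KO hearts and 47.5 ± 5.39 CPM in control hearts and was not called (SD, n = 4 each; log2 0.13 ± 0.09, adjusted p = 0.298).

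**Figure D4:**
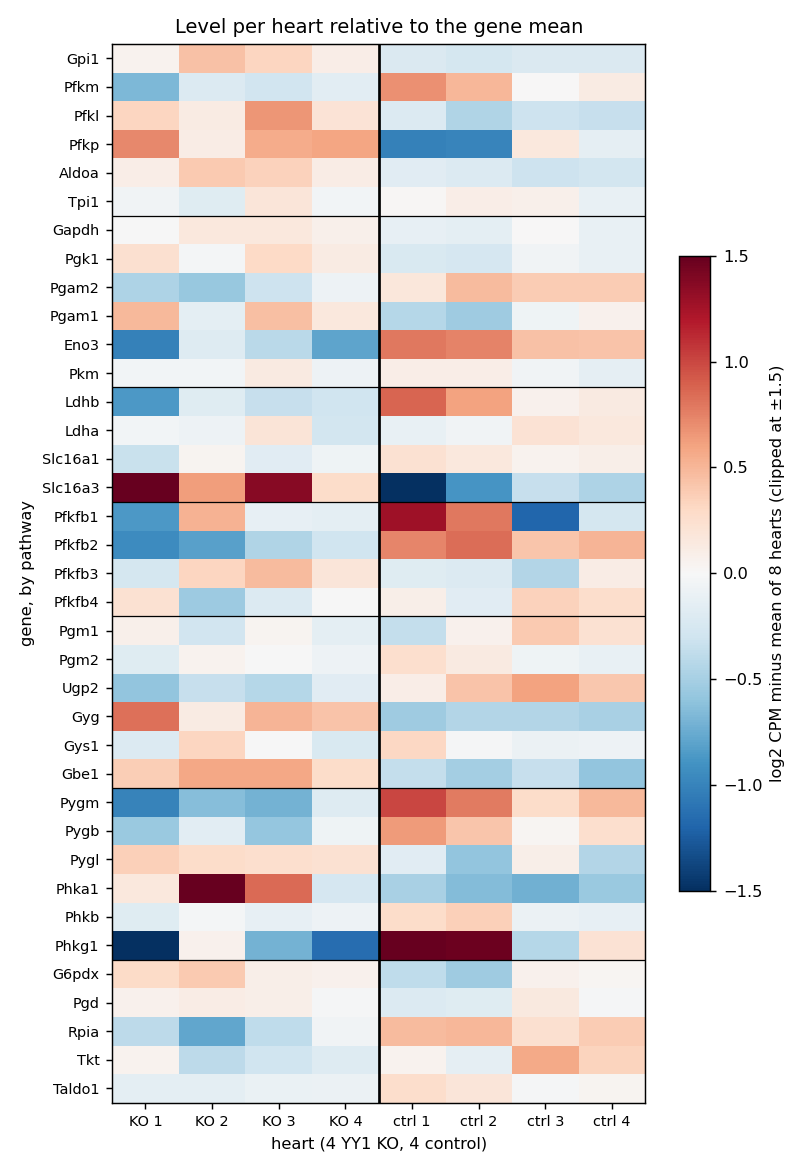
Level of each tested member in each heart as log2 CPM minus the gene's mean over the 8 hearts, with YY1 KO hearts in the 4 left columns and control hearts in the 4 right columns, and colours clipped at ±1.5. Red is above and blue below the mean; the Pfkm, Eno3, Ldhb, Pfkfb2 and Pygm rows are red to near white in the controls, and deeper in control hearts 1 and 2 than in 3 and 4.

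Control hearts were not alike in these genes. Of the 11 members called lower, 9 were higher in both control hearts 1 and 2 than in both control hearts 3 and 4, and 0 were lower in both. Among the 10 called higher the same held for 1 and the opposite for 3, and over all 37 tested members the numbers were 16 and 11. Nppa, the atrial natriuretic peptide gene that rises under cardiac load, was at 4034, 2989, 3241 and 3748 CPM in YY1 KO hearts, against 159.1, 1213, 2839 and 4283 CPM in control hearts. It was thus lowest in control hearts 1 and 2 and not called (log2 0.72 ± 0.71, adjusted p = 0.447), and its part in the members' differences was not tested.

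Markers of the cell types of the heart moved as well. The summed level of 10 cardiomyocyte markers was 63190 to 87680 CPM in YY1 KO hearts, against 87730 to 113300 CPM in control hearts, with 3 of 10 called lower and 1 higher. Endothelial markers summed to 1449 to 1704 CPM in YY1 KO hearts, against 1973 to 2691 CPM in control hearts, with 7 of 10 lower, and pericyte and smooth muscle markers to 844 to 1041 CPM in YY1 KO hearts, against 1238 to 1497 CPM in control hearts, with 4 of 10 lower and 1 higher. Fibroblast markers (2251 to 6605 CPM in YY1 KO hearts, 1593 to 5269 CPM in control hearts, 1 of 10 higher) and leukocyte markers (384 to 526 CPM in YY1 KO hearts, 326 to 557 CPM in control hearts, 0 of 10 called) overlapped. Of 10 skeletal muscle markers Myh4, Myf6 and Myod1 were listed at 0 in every heart, and Myh1, Myh2, Tnni2 and Actn3 had too few reads to be tested. Of the 3 tested, Mylpf was not called and Tnnt3 was higher (8.28 ± 4.51 CPM in YY1 KO hearts and 1.01 ± 0.48 CPM in control hearts, SD, n = 4 each). Ckm, which the heart also uses, was lower (log2 −3.20 ± 0.68). It averaged 158.8 ± 185.3 CPM in YY1 KO hearts and 1462 ± 169.6 CPM in control hearts (SD, n = 4 each). With Ckm included, the 10 markers summed to 61.85 to 440.9 CPM in YY1 KO hearts, against 1266 to 1654 CPM in control hearts. Adipocyte markers summed to at most 2.37 CPM in YY1 KO hearts and 1.39 CPM in control hearts. Of 5 erythroid markers 4, all hemoglobin genes, were listed at 0, and Alas2 was not called. The part of cell composition in the members' differences was not tested.

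Genes next to the members on the same pathways were read from 7 further lists, with 13 genes higher and 16 lower in all. At the entry of glycolysis Hk1 was higher and Hk2 lower. Hk1, the form of most tissues, averaged 601.3 ± 109.1 CPM in YY1 KO hearts and 319.7 ± 13.2 CPM in control hearts, and Hk2, the insulin-responsive muscle form, 236.7 ± 41.0 CPM in YY1 KO hearts and 527.5 ± 45.5 CPM in control hearts (SD, n = 4 each). Both were called without overlap (log2 0.91 ± 0.14, adjusted p = 0.00131, for Hk1 and −1.16 ± 0.14, adjusted p = 0.000563, for Hk2). In the list of 12 other tested glycolytic enzymes Gapdhs (log2 1.13 ± 0.23) and Eno2 were also higher. Of 5 tested glucose transporters Slc2a1, or GLUT1, was higher (log2 0.62 ± 0.16) and Slc2a12 lower (−1.31 ± 0.28), while Slc2a4, or GLUT4, averaged 436.5 ± 147.3 CPM in YY1 KO hearts and 467.9 ± 109.6 CPM in control hearts and was not called. Of 18 other tested glycogen genes Phka2 (log2 0.51 ± 0.13) and Ppp1r3e (0.81 ± 0.17) were higher, and Ppp1r3b, a subunit that brings phosphatase 1 to glycogen (−1.41 ± 0.22), and Epm2a, laforin (−0.82 ± 0.16), were lower.

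Of 7 other tested pentose phosphate genes Shpk was higher (log2 1.09 ± 0.18) and Prps1, which turns ribose 5-phosphate into phosphoribosyl pyrophosphate, lower (−1.63 ± 0.23). Of 11 lactate and pyruvate genes Emb was higher (log2 1.05 ± 0.25), and Bsg, the chaperone of the lactate carriers (−0.89 ± 0.15), Slc16a7, the carrier MCT2 (−1.78 ± 0.32), and Mpc2, a subunit of the mitochondrial pyruvate carrier (−0.73 ± 0.14), were lower. Of 9 genes of the polyol, fructose and hexosamine branches Gnpnat1 (log2 0.45 ± 0.11), Pgm3 (0.75 ± 0.16) and Mgea5 (0.40 ± 0.12) were higher and Sord, sorbitol dehydrogenase, lower (−1.39 ± 0.24). Of 21 regulators of these genes Mlx and Keap1 were higher and Egln1, Mlxipl, Arrdc4, Max, Prkaa1 and Esrrg lower. Mlxipl, the glucose-sensing factor ChREBP, had the largest fall among them, to 11.9 ± 5.89 CPM in YY1 KO hearts, against 54.9 ± 3.22 CPM in control hearts (SD, n = 4 each; log2 −2.21 ± 0.27, adjusted p = 0.000634). Arrdc4 (log2 −0.78 ± 0.17), Prkaa1, a catalytic subunit of AMP-activated kinase (−0.67 ± 0.13), and Egln1, an oxygen-sensing prolyl hydroxylase (−0.66 ± 0.19), followed. The share called in each list, from 22.2% of the other glycogen genes to 44.4% of the side branches, lay on both sides of the 38.9% of all tested genes.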

How the data were processed

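RNA was measured in 8 hearts, 4 YY1 KO and 4 MerCreMer control, grouped by the labels. The authors deposited unnormalized counts of reads per gene, 1 table a heart; Trimmomatic, STAR and the build mm10 stand in the submitters' processing notes, with no version or annotation. Counts irrespective of strand were used. Reads not assigned to a gene (33.0 to 38.9% of reads) were left out of library sizes. Libraries of a group differed beyond sampling noise (chi-square 14.6 to 97.4 for each degree of freedom) and were each 1 replicate. Genes were kept with filterByExpr (minimum count 10, 0.649 CPM, in at least 4 libraries), and groups were compared with edgeR 4.0.16 (TMM, robust quasi-likelihood F test, group alone, Benjamini-Hochberg, threshold 0.05) in R 4.3.3, with limma 3.58.1 and DESeq2 1.42.0 as alternatives. The fit was tested on simulated data with few genes changed (86 calls among 13398 genes). It recovered 58% of 2-fold and 21.4% of 1.5-fold changes, and 8.1% of its calls were false. In the data 38.9% of tested genes were called, and the adjustment is stricter where few genes change. These rates thus do not carry over to the data. A member that was not called is not shown to be unchanged. CPM use the TMM-scaled library sizes, except for Xist and Y-linked genes, which use gene reads.

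Exon lengths and positions are from GENCODE M21 (GRCm38, the build of mm10). Family ratios and sums used CPM per kb with a pseudocount of 0.5 counts and a two-sided exact permutation test over hearts, adjusted over 5 families; aldolase and enolase, planned as well, were left out because their other form had under 10 reads in every library. Promoters are RefSeq windows of 300 bases; a planned print of protein sequences was not made. Named genes are all members, every called gene of the other pathway lists but 1, which is not reported here, with values for up to 4, Yy1, and the Xist and Y-linked check; Nppa, Slc2a4 and the markers named by symbol were added after values were seen. The members, lists and tests were chosen with earlier results of these data known. Replicate numbers in the labels were checked for pairing. Deviations of same-numbered hearts from their group means correlated at −0.464, 0.337, −0.056 and 0.271. These mixed values show no pairing by number and cannot exclude it. Same-numbered hearts were of the same kind, Xist-positive for numbers 1 and 4 and Y-positive for numbers 2 and 3. Alternatives changed the scaling, filter, strand, tool, sex term, block and each heart in turn.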

Additional observations from a re-analysis of the deposited data

Results flagged for a closer look

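Among 74 sets of 4 hearts (37 tested members in each group), 1 had a heart far from the others by Dixon's criterion at its 95% level, where chance gives about 1 in 20. It was Gpi1 in control hearts, with control heart 2 at 778.4 CPM and the other 3 between 805.3 and 809.8 CPM. All 4 lay below the lowest YY1 KO heart (973.9 CPM).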

How the results depend on the processing

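All 21 called members kept their direction in every alternative run, and 12 (Pfkl, Pgam2, Eno3, Slc16a3, Pfkfb2, Ugp2, Gyg, Gbe1, Pygm, Pygb, Phka1 and Rpia) stayed past the threshold in every one except the fits on hearts of 1 kind. In the Xist-positive hearts alone edgeR called 0 members higher and 0 lower (16 had an unadjusted p under 0.05) and 0 of all 13671 genes; no other tool was run there. In the Y-positive hearts alone it called 6 higher, with Pfkfb3 among them, and 6 lower. Each of these fits has 2 hearts against 2. The replicate block, which pairs hearts by number although no such pairing was shown, left 6 members higher and 7 lower. Gpi1, Pfkm, Aldoa, Pgk1, Ldhb, Pygl, Phkg1 and Taldo1 were no longer called with it. DESeq2 added calls of Pgam1, Slc16a1 and Tkt, and RLE scaling one of Tkt; Taldo1 was lost with a term for sex, and with library size alone. Leaving out 1 heart gave 6 to 10 members higher and 9 to 11 lower, with 6 higher without YY1 KO heart 3. Genes of the other pathway lists called higher numbered 8 with the replicate block, 0 in the Xist-positive and 6 in the Y-positive hearts alone, and 9 to 13 without 1 heart; those called lower numbered 0 in the Xist-positive hearts and 14 to 17 without 1 heart. Uncalled members near 0 changed sign. Tpi1 was at 0.03 with library size alone and at 0.00 in the Xist-positive hearts (−0.11 to 0.01 without 1 heart), Pkm at 0.05 with library size alone and 0.00 in the Y-positive hearts (−0.07 to 0.01), Gys1 at 0.00 with library size alone and 0.21 in the Y-positive hearts (−0.18 to 0.04), Pfkfb1 at 0.11 in the Y-positive and Pgm1 at 0.00 in the Xist-positive hearts. Isoform ratios and family sums kept their direction throughout; without 1 heart their exact permutation test cannot go below p = 0.0571, nor below 0.125 in pairs, so those say nothing of the threshold. The cause of these changes was not tested beyond the smaller number of hearts. Depth limits Slc16a3, Pfkfb1, Pfkfb4, Pgm1, Pygl and Phkg1 more than the other tested members.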
